A study of Mus musculus with 3 samples.

Results

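Fast excitation in the brain runs through AMPA receptors, and the ribosome footprints of 8 genes that build them were followed here in mouse primary cortical neurons. The genes were the 4 receptor subunits (Gria1, Gria2, Gria3 and Gria4) and the 4 type I transmembrane AMPA receptor regulatory proteins, or TARPs (Cacng2, Cacng3, Cacng4 and Cacng8). They were taken by symbol after transcript identifiers had been matched to GENCODE symbols, and the longest transcript that had both UTRs and a CDS stood for each gene, which made 8 of 20823 genes. Ribosome profiling sequences the pieces of mRNA that ribosomes shield from nuclease, so read counts report where ribosomes sat on an mRNA. The study's methods describe neurons from the cortex of CD-1 mouse embryos, and the labels give neither genotype nor age. There were 3 libraries, each from 3 pooled dishes. Neurons of the WT library received no drug, those of the Chx library received cycloheximide for 2 min, and those of the Harr library received harringtonine for 2 min, followed by a cycloheximide pulse. Cycloheximide stalls ribosomes that are elongating. Harringtonine holds ribosomes that have just initiated and lets those farther along run on and leave the mRNA. All 3 libraries met cycloheximide at 100 µg per ml in the rinse and lysis buffers, so WT means no drug before harvest. The treatments are those of the sample titles and treatment labels, and the free-text descriptions of the same samples name fractions of another experiment instead, a conflict that was not resolved here and that bears on each comparison of libraries. With 1 library per treatment there was no replicate check and no test between treatments was possible, and every interval below is a 95% interval for counting error only. By the headers of the tables, reads were assigned to segments by their 5′ ends with no offset, unlike in the study's search for open reading frames, which used an offset from the 3′ end. Under the assignment in the headers, a ribosome resting on a start codon adds its read to the last bases of the 5′ UTR.

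AMPA receptors are assemblies of 4 subunits around a channel that opens when glutamate binds. Gria2 is known for the RNA-edited residue in its pore that keeps calcium out, so receptors with and without it differ in what they conduct. TARPs are membrane proteins of the claudin fold that ride with the receptor, carry it to the surface, anchor it at the postsynaptic scaffold through their C-terminal tails and slow its closing. Cacng2 encodes stargazin, the founding TARP, whose loss in the stargazer mouse causes ataxia and absence seizures. The Gria2 mRNA is known for its long 5′ leaders, which differ with the start site of transcription.

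The bases around each start codon are shown first, because the counts divide there into 5′ UTR and CDS. Each line runs 5′ to 3′ from 12 bases before the start codon, which is in capitals, and comes from the GENCODE M21 transcripts (GRCm38, the mm10 build of the tables).
Gria1, chr11:57012022-57012048, plus strand: gtaaaaaggaatATGccgtacatcttt
Gria2, chr3:80802370-80802396, minus strand: cttttcttggaaATGcaaaagattatg
Gria3, chrX:41401553-41401579, plus strand: aggcagaagaaaATGgggcaaagcgtg
Gria4, chr9:4795260-4795286, minus strand: ggagcaaagaagATGaggattatttgc
Cacng2, chr15:78118877-78118903, minus strand: taatgaagaattATGgggctgtttgat
Cacng3, chr7:122671762-122671788, plus strand: ccatgaagaattATGaggatgtgtgac
Cacng4, chr11:107794450-107794476, minus strand: gaggcgcccaccATGgtgcgatgcgac
Cacng8, chr7:3394213-3394239, plus strand: ccagtggtgaaaCTGgagtcattgaaa
Cacng8 stood apart from the other 7, since its annotated CDS opens with CTG. Of 20690 genes with a matching transcript sequence, 27 (0.13%) opened with a codon other than ATG and 17 of these with CTG. All 8 genes had a purine 3 bases before the start codon, as did 84.1% of all genes, and 4 of the 8 (Gria3, Cacng2, Cacng4 and Cacng8) had both this purine and a G right after the codon, as did 41.0% of all genes. Every member had at least 1 ATG in its 5′ UTR on the mRNA strand, against 55.4% of all genes. The 5′ UTRs of 7 of the 8 were longer than the median of 177 nucleotides, at 224 nucleotides in Gria1, 451 in Gria2, 261 in Gria3, 479 in Gria4, 1137 in Cacng2, 1282 in Cacng3 and 582 in Cacng8, whereas that of Cacng4 had 93. Among the 2120 genes with a 5′ UTR of 500 to 1300 nucleotides, 95.9% had an upstream ATG, and among the 7002 genes with 200 to 500 nucleotides, 77.7%.

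Over the CDS, Gria2 was the most densely occupied of the 8 genes and Gria1 the next in all 3 libraries, with the remaining subunits and the TARPs well below. Levels are given as RPKM, the reads per kilobase of CDS and per 1000000 reads of the library. Gria2 (CDS of 2652 nucleotides) stood at 93.7 RPKM in WT (91.6 to 95.9), 98.5 in Chx (96.5 to 100.5) and 92.8 in Harr (89.1 to 96.6). Gria1 (2724 nucleotides) stood at 52.2 in WT, 49.8 in Chx and 44.8 in Harr. Levels are best compared within a library: per 1000000 CDS reads in place of all reads, Gria1 stood at 94.5 in WT, 88.0 in Chx and 115.7 in Harr and Gria2 at 169.9, 174.2 and 239.8, which made Harr the highest library for both. Gria2 was thus 1.80-fold (1.73 to 1.87) above Gria1 in WT, and it made up 53.3% of the summed RPKM of the 4 subunits in WT, 54.7% in Chx and 56.7% in Harr. Gria4 had 16.2 RPKM in WT, 16.6 in Chx and 11.5 in Harr, and Gria3 had 13.8, 15.2 and 14.6. Gria4 was the higher of these 2 in WT and Chx, and Gria3 was 1.27-fold (1.10 to 1.48) higher in Harr.

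Among the TARPs, Cacng4 and Cacng8 had the higher levels and Cacng3, the TARP known from adult forebrain, the lowest in WT and Chx. Cacng4 (TARP γ-4, known for its expression early in development) had 15.2 RPKM in WT (13.9 to 16.7), 19.5 in Chx and 10.8 in Harr. Cacng8 (TARP γ-8, known as the main TARP of the hippocampus) had 13.3 in WT (12.2 to 14.5), 19.2 in Chx and 5.72 in Harr. In WT, the counting intervals did not separate Gria4 from Cacng4, Cacng4 from Gria3, or Gria3 from Cacng8, each compared with its neighbour in the order. Cacng2 followed at 7.63 RPKM in WT, 7.37 in Chx and 3.80 in Harr, and Cacng3 at 4.78, 4.93 and 5.41. In Harr the order at the bottom could not be read, since Cacng8, Cacng3 and Cacng2 rested on 71, 50 and 36 CDS reads and neighbours in the order did not differ beyond counting error. Against the 11459 genes that had 100 or more CDS reads over all libraries, whose median was 11.7 RPKM in WT, Gria2 lay above 90.0% of genes, Gria1 above 83.1%, Cacng8 above 53.0% and Cacng3 above 27.1%. Summed CDS reads per 1000000 were 471 for the 4 subunits and 43.8 for the 4 TARPs in WT, but a subunit CDS is also longer, and in RPKM the sums were 176 and 40.9. In cultured cells, fewer cells that express a gene and less of its mRNA per cell cannot be told apart.

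**Figure D1:**
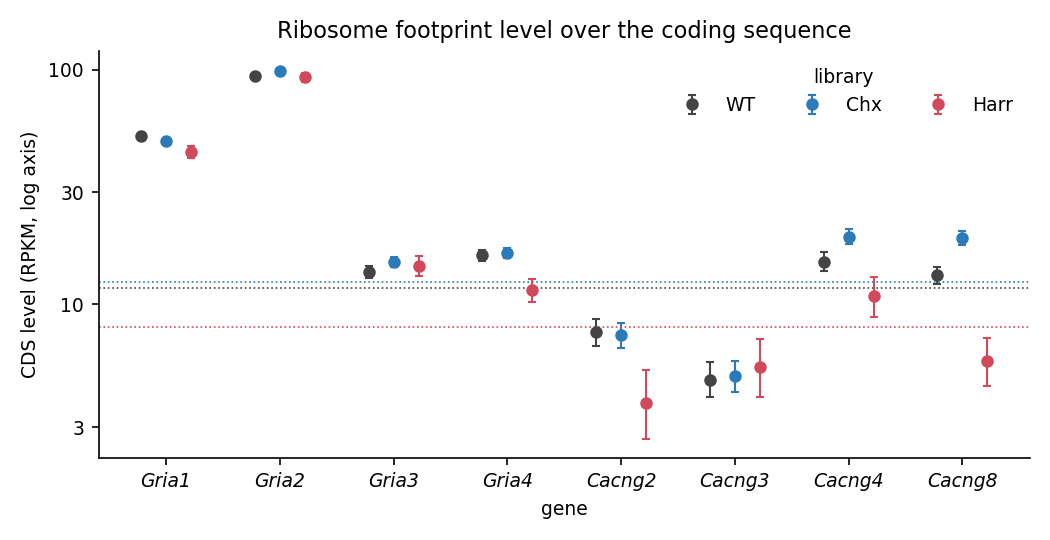
CDS level of the 8 genes in RPKM on a log axis, with 1 point per library (WT grey, Chx blue, Harr red), exact Poisson 95% intervals as bars and the median of 11459 genes in each library as a dotted line. Gria2 sits between 92.8 and 98.5 and Gria1 between 44.8 and 52.2, while Cacng2 and Cacng3 stay below the WT median of 11.7.

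The 5′ UTRs of Cacng2 and Cacng3 carried more footprints than their own CDS in each library, and those of the subunits carried fewer. The measure used is the number of 5′ UTR reads per CDS read of the same mRNA, whose median over genes with at least 30 CDS reads was 0.0511 in WT, 0.0900 in Chx and 0.443 in Harr. Gria1 had 0.182 5′ UTR reads per CDS read in WT, 0.112 in Chx and 0.422 in Harr. Gria2 had 0.153, 0.202 and 0.976. Gria3, the lowest of the subunits, had 0.0586, 0.0761 and 0.382. Gria4 had 0.188, 0.114 and 0.865. In WT, 17.1% of genes lay above Gria4, 17.7% above Gria1, 21.3% above Gria2 and 46.0% above Gria3. In Chx the shares were 42.3% for Gria4, 42.8% for Gria1, 24.7% for Gria2 and 55.0% for Gria3, and in Harr 30.9%, 51.4%, 27.8% and 54.3%, so each of the 4 subunits ranked highest in WT. For the TARPs, Cacng2 had 2.09 in WT, 1.84 in Chx and 8.53 in Harr, so its CDS held fewer reads than its 5′ UTR in each library (468 5′ UTR and 224 CDS reads in WT). Cacng3 had 1.31, 1.29 and 3.94. In WT, 0.363% of genes had a higher value than Cacng2 and 0.819% a higher value than Cacng3. Cacng8 had 0.524, 0.386 and 3.58, with 4.43% of genes above it in WT. Cacng4 was the exception among the TARPs, with 0.0508 in WT, 0.289 in Chx and 0.721 in Harr. Counted per nucleotide, the order was another: the 5′ UTR had 1.79 times the CDS density in Cacng2 and 0.972 times in Cacng3 in WT, against 2.22 times in Gria1 and a median of 0.375 times over all genes.

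**Figure D2:**
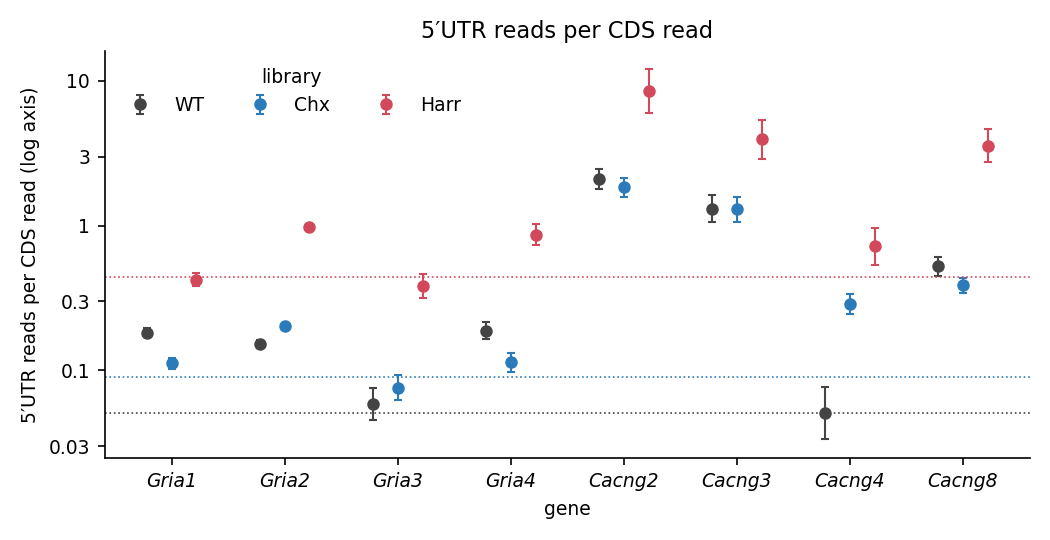
Number of 5′ UTR reads per CDS read on a log axis for the 8 genes in WT (grey), Chx (blue) and Harr (red), with 95% counting intervals as bars and the median of all genes in each library as a dotted line. Harr is the highest library for each gene, Cacng2 and Cacng3 lie above 1 in all 3 libraries, and Cacng4 alone is far higher in Chx (0.289) than in WT (0.0508).

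Harr had the highest 5′ UTR:CDS ratio for each of the 8 genes. A gene was counted as changed when its ratio differed 2-fold between libraries, and by that rule all 8 were higher in Harr than in Chx, where 91.7% of 10806 genes were, and all 8 were higher in Harr than in WT, where 95.8% of 10384 genes were. With no minimum of 5′ UTR reads the shares of all genes were 65.7% and 67.9%. The 2 comparisons share the Harr library. The median log2 odds ratio of the 8 members was 2.23 against Chx and 2.44 against WT, beside 2.45 and 3.23 for all genes tested. Against Chx the values ran from 1.32 ± 0.25 (counting SE) in Cacng4 to 3.20 ± 0.21 in Cacng8, with 1.92 ± 0.10 in Gria1, 2.32 ± 0.20 in Gria3, 2.92 ± 0.17 in Gria4, 2.19 ± 0.28 in Cacng2 and 1.60 ± 0.27 in Cacng3. Against WT the smallest was Gria1 with 1.21 ± 0.10, with 5.82% of genes below it, followed by Cacng3 with 1.57 ± 0.28 and 10.1% below. The largest was Cacng4 with 3.80 ± 0.38.

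Between Chx and WT, both without harringtonine, most of the members did not share the higher 5′ UTR:CDS ratio that most genes had in Chx. The ratio was higher by 2-fold in Chx for 34.7% of 10483 genes and lower by 2-fold for 1.94%, with a median log2 odds ratio of 0.66, and 19.4% of genes did not exceed 0. Of the 8 members, 5 were below 0, and their median was −0.10. Gria1 had −0.71 ± 0.09 and Gria4 −0.73 ± 0.15, values that 3.75% and 3.51% of genes fell below. Cacng8 followed with −0.44 ± 0.14 and a 95% interval of −0.72 to −0.16. The intervals of Cacng2 (−0.18 ± 0.16) and Cacng3 (−0.02 ± 0.22) included 0. Gria2 (0.40 ± 0.06) was above 0 but below the median of all genes, and the interval of Gria3 (0.37 ± 0.23) included both. Only Cacng4 passed the 2-fold rule, with 2.48 ± 0.33, above 96.6% of genes. Its 93-nucleotide 5′ UTR held 198 reads in Chx and 23 in WT while its CDS held 684 and 453. With 8 genes and 1 library each, these values describe the libraries only.

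The tables list segments of shorter transcripts that end inside the same 5′ UTR, and subtracting them cuts 6 of the 8 leaders into parts. In Gria1 the 78 bases next to the start codon held 750 of the 782 5′ UTR reads in WT (95.9%), 504 of 541 in Chx (93.2%) and 453 of 502 in Harr (90.2%). Their density in WT, 9.62 reads per nucleotide, was 6.10 times that of the CDS. Both upstream ATGs of Gria1 lie in this stretch. The farther, 43 bases before the start codon (aaatctATGgttg, capitals on the ATG), opens a frame of 56 codons that is out of frame with the CDS and ends inside it, and the nearer, 14 bases before it (tcgccaATGtaaa), meets a stop after 1 codon.

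Gria2 had nearly all its 5′ UTR reads in the 309 bases nearest to the CDS. The 195 bases next to the start codon held 1068 reads in WT, 1650 in Chx and 1955 in Harr, the next 71 bases held 63, 160 and 309, and the next 43 held 9, 67 and 72. Farther upstream, 31 bases held 3 reads in WT, 2 in Chx and 0 in Harr, the next 56 held 3, 5 and 6, and no read began beyond them. Relative to the CDS, the part from 196 to 266 bases differed more between Harr and WT than the part at the start codon, with a log2 odds ratio of 3.93 ± 0.20 against 2.52 ± 0.06. The upstream ATGs of Gria2 lie 377, 367, 98 and 20 bases before the start codon. That at 98 (ctcaaaATGcaga) ends after 4 codons, and that at 20 (ttgtggATGctct) opens 24 codons that run past the start codon out of frame. The 2 far ATGs lie in the nearly empty stretch of 56 bases.

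Gria3 had most of its reads in a short part away from the start codon. The width of a part is set by the annotated segments, so it does not rank the genes by how narrowly their reads lie. Its 5′ UTR reads lay almost wholly in the 47 bases from 37 to 83 before the start codon, which held 60 of 65 reads in WT (92.3%), 91 of 110 in Chx (82.7%) and 131 of 145 in Harr (90.3%). The 36 bases next to the start codon, where the reads of ribosomes on that codon would begin, held 3, 15 and 10. The stretch holds the sole upstream ATG of Gria3, 49 bases before the CDS (gcgcccATGctct), with a frame of 7 codons. No read began more than 129 bases before the start codon in any library.

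Gria4 differed from the other subunits in that its reads were spread over the whole leader. The first 92 bases of the mRNA held 18 reads in WT, 38 in Chx and 81 in Harr, and with 0.880 reads per nucleotide this was the densest part in Harr although it was the sparsest in WT (0.196). The 89 bases next to the start codon held 86 reads in WT, 44 in Chx and 59 in Harr, and were the densest part in WT (0.966 reads per nucleotide) and the next densest in Harr (0.663). Relative to the CDS, the far part was 4.27 ± 0.38 higher in Harr than in WT on the log2 scale and the near part 1.59 ± 0.26, and against Chx the values were 3.48 ± 0.30 and 2.82 ± 0.30. An upstream ATG lies in each of the 3 parts, and that at 374 bases (gagaccATGggga) has both a purine 3 bases before it and a G after it but only 4 codons.

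In the TARPs, Cacng8 had most of its 5′ UTR reads away from the start codon. The 108 bases next to its CTG held 42 reads in WT, 38 in Chx and 18 in Harr, at 0.968 times the CDS density in WT, 0.513 times in Chx and 2.99 times in Harr. The 75 bases beyond held 132, 159 and 111, and the next 111 bases held 72, 131 and 118. These 2 parts took up most of the 5′ UTR reads, and the 288 bases farthest out had 22, 9 and 7. The 1 upstream ATG of Cacng8 lies 174 bases before the CDS in the part of 75 bases (gagactATGgctt), with a purine 3 bases before it, a G after it and a frame of 4 codons. In Cacng3 the 356 bases next to the start codon held 154 reads in WT, 167 in Chx and 132 in Harr, and the 899 bases farthest out, though far longer, held 23, 40 and 48. Cacng3 has 8 upstream ATGs, of which 5 lie in the near part, and the frame of that at 274 bases has 69 codons.

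Cacng2 has the most upstream ATGs of the members, 9, and 94.8% of genes have fewer. Cacng2 and Cacng3 resemble each other in the last of these. In both, an ATG lies 10 bases before the start codon and opens 7 codons that run past it out of frame (Cacng2, tatataATGaaga; Cacng3, agtaccATGaaga). No table cuts the leader of Cacng2, so where its 468 WT reads lie within 1137 bases was not resolved. An antisense gene, A730060N03Rik, overlaps 323 bases of this leader on the other strand, and the segment of 715 nucleotides that overlaps held 29 reads in WT, 52 in Chx and 20 in Harr. Cacng4 has 1 upstream ATG, 14 bases before the CDS (cggactATGaggc), whose frame of 16 codons also runs into the CDS, and its leader is 87.1% G and C, more than in 99.4% of genes.

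**Figure D3:**
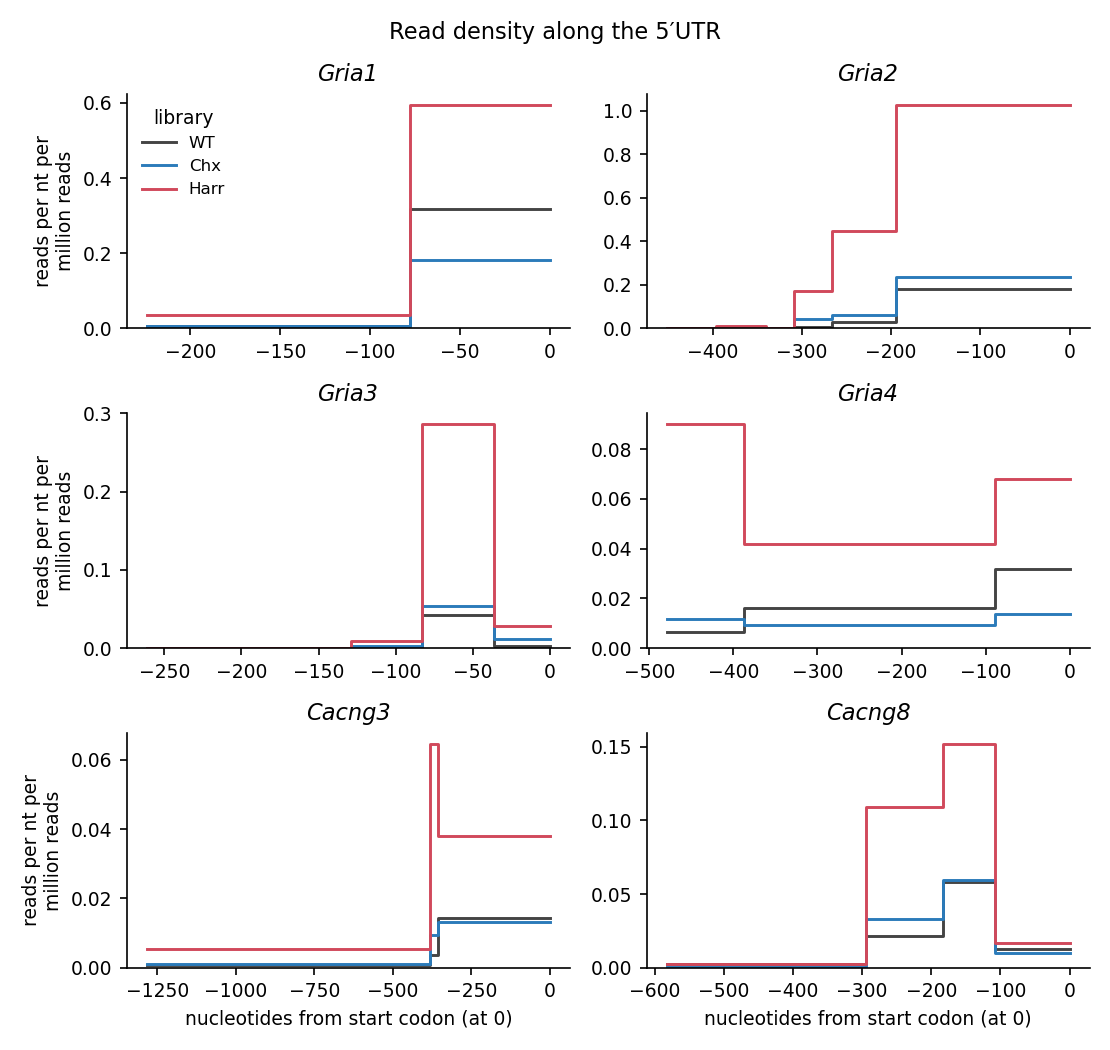
Reads per nucleotide and per 1000000 reads of the library along the 5′ UTR of 6 genes, against the distance from the start codon at 0, with WT in grey, Chx in blue and Harr in red. Each step is 1 part that nested segments allow. Most Gria1 and Gria2 reads lie in the part next to the start codon, of 78 and 195 bases, within which they are not resolved. Most Gria3 reads sit 37 to 83 bases upstream, most Cacng8 reads sit 109 to 294 bases upstream, and those of Gria4 span the whole leader.

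Over the whole CDS, values were scaled to the CDS reads of each library. For Harr against Chx, Gria1, Gria2, Gria3 and Cacng3 were above 0 beyond counting error, and Cacng8 was below 0 beyond it. Of those above 0, only Cacng3 reached 1.5-fold. But scaled to all reads of each library the 3 subunits were at −0.15 (Gria1), −0.087 (Gria2) and −0.053 (Gria3), and Cacng3 was at 0.14, short of 1.5-fold. That other scaling shifted the median of all genes by −0.55 for Harr against Chx and by −0.51 for Harr against WT, with 2.72% of genes then 1.5-fold higher and 50.5% lower against Chx, so the values here are relative to the CDS reads. The log2 ratio of Harr against Chx was 0.40 ± 0.05 in Gria1, 0.46 ± 0.03 in Gria2, 0.50 ± 0.08 in Gria3 and 0.02 ± 0.09 in Gria4. None of these reached 1.5-fold. Among the TARPs, Cacng8 was lower, at −1.19 ± 0.18 (71 CDS reads in Harr against 873 in Chx), and Cacng3 was higher, at 0.69 ± 0.23 (50 against 167), whereas Cacng2 (−0.39 ± 0.26) and Cacng4 (−0.29 ± 0.15) did not reach 1.5-fold. Of 11459 genes, 17.5% were 1.5-fold higher and 26.3% were 1.5-fold lower in Harr than in Chx, so 1 of 8 in either direction was no more than the background. Against WT, 2 of 8 members (Gria3, 0.60 ± 0.09, and Cacng3, 0.70 ± 0.24) were 1.5-fold higher, where 20.2% of genes were, and 1 (Cacng8, −0.70 ± 0.18) was 1.5-fold lower, where 25.8% were. Gria3 fell short of 1.5-fold with median-of-ratios size factors (0.58) and with the most-read transcript (0.54), and scaled to all reads both Gria3 (0.086) and Cacng3 (0.19) did. Between Chx and WT none of the 8 differed 1.5-fold. The same held for nearly all genes, with 1.99% higher and 1.61% lower in Chx. The Chx:WT values ran from −0.10 ± 0.03 in Gria1 to 0.49 ± 0.08 in Cacng8, the last above 96.3% of genes.

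The subunits and the TARPs differ in CDS length, and the medians of genes of like length are given beside theirs, although single members lay on both sides of them. For the 917 genes with a CDS of 2400 to 3000 nucleotides the median log2 ratio of Harr against Chx was 0.38, beside 0.43 for the 4 subunits. For the 2153 genes with a CDS of 900 to 1300 nucleotides it was −0.43, beside −0.34 for the 4 TARPs, and 39.8% of these genes were 1.5-fold lower. Cacng3 was 1.5-fold higher when scaled to CDS reads, as were 6.69% of the genes in its length class, but not when scaled to all reads (0.14).

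Along the CDS, the early exons of all 4 subunits held fewer reads relative to the late ones in Harr than in the other libraries. The exons were set apart at 1200 nucleotides from the start codon by their midpoints. In Gria2 the exons before that point held 4042 reads in WT, 4838 in Chx and 613 in Harr, and those after it held 3470, 4496 and 1787. The early exons were therefore 0.319 times (0.289 to 0.353) as well filled as the late ones in Harr relative to Chx, a log2 value of −1.65 ± 0.07. In Gria1 the value was −1.24 ± 0.10, in Gria3 −1.33 ± 0.18 and in Gria4 −1.79 ± 0.19, and relative to WT the 4 values were −1.44 ± 0.10 in Gria1, −1.76 ± 0.08 in Gria2, −1.67 ± 0.19 in Gria3 and −1.69 ± 0.19 in Gria4. The 842 genes with a CDS of like length had a median of −1.34 relative to Chx, with quartiles of −1.74 and −0.87, and of −1.39 relative to WT, with quartiles of −1.83 and −0.85. The subunits lay between these quartiles in both comparisons, except that Gria4 was just beyond the lower one relative to Chx. Between Chx and WT the same measure was small, from −0.34 ± 0.12 in Gria3 to 0.10 ± 0.12 in Gria4.

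Exon by exon, all 29 exons after 1200 nucleotides had a higher share of CDS reads in Harr than in Chx, and 24 of them beyond the counting interval. Of the 33 exons before it, 23 were lower in Harr, 11 beyond the interval, and 1 was higher beyond it. That exon, the second coding exon of Gria1 (bases 83 to 220), held 164 reads in Harr against 42 in the longer coding exon 3 and 13 in coding exon 4, whereas in Chx the 3 exons held 545, 597 and 238. Its log2 ratio of Harr against Chx was 0.69 ± 0.13, and that of coding exon 3 −1.39 ± 0.23. Against WT the second exon was at 0.23 ± 0.13, with an interval that included 0, and coding exon 3 at −1.80 ± 0.23. Gria4 had a like step at its first exon, with 26 Harr reads in 88 nucleotides and 15 in the 159 of the second, at 0.13 ± 0.31 and −1.92 ± 0.38. The lowest value of the 4 subunits was in the fifth exon of Gria1, which had 1 read in Harr and 47 in Chx, and the fourth exon had 13 and 238 (−1.72 ± 0.40). Gria2, the best covered, had −0.89 ± 0.19 in the second exon, −0.94 ± 0.12 in exon 3, 0.02 ± 0.15 in the seventh and 1.27 ± 0.06 in the eleventh. Against WT, all 29 late exons were higher in Harr, 25 beyond the interval. Of the 33 early exons 24 were lower, 13 beyond it, and 3, none of them the second exon of Gria1, were higher beyond it. Scaled to all reads, each Harr:Chx value shifts by −0.55, which takes the lowest late ones, such as 0.23 in the tenth exon of Gria1, below 0. No share over the exons of all genes is given beside these counts.

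**Figure D4:**
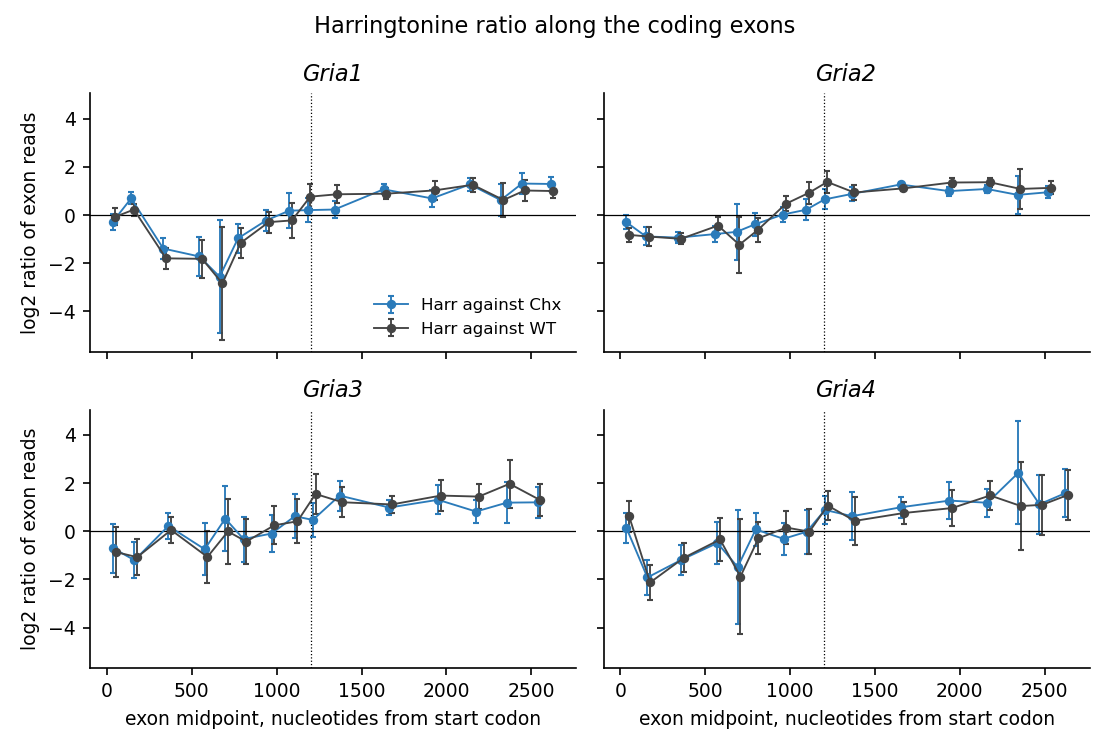
Log2 ratio of reads in each coding exon, Harr against Chx (blue) and Harr against WT (grey), scaled to the CDS reads of each library, against the exon's midpoint in nucleotides from the start codon for the 4 subunits, with 95% counting intervals as bars and a dotted line at 1200 nucleotides. All exons past the line lie above 0, and the second exon of Gria1, at 0.69 in blue, stands out above its neighbours.

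All exons of the shorter TARP CDSs have their midpoints before 1200 nucleotides, and they differed among themselves in Harr. In Cacng4 the first exon kept 65 Harr reads against 275 in Chx (0.35 ± 0.20), while the remaining 3 held 1, 5 and 33 against 24, 61 and 324. In Cacng8 the first exon held only 27 against 494, at −1.75 ± 0.28, the lowest first exon of the 8 genes, although its 5′ UTR had 254 reads in Harr. Cacng2 had 18 Harr reads in its first exon against 91 in Chx (0.11 ± 0.37), and 2, 0 and 16 in the next 3. Cacng3 had 24 against 58 (1.17 ± 0.35) and 1, 3 and 22. By value, the first exon had the highest Harr:Chx ratio of its gene in Cacng2, Cacng3 and Cacng4 but not in Cacng8. Counting error did not separate it from coding exon 4 in Cacng2 (−0.37 ± 0.38) or Cacng3 (0.71 ± 0.35). In Cacng4 the first exon lay apart from coding exon 4 (−0.86 ± 0.26). Coding exons 2 and 3 of these genes had few Harr reads, and no share of all genes with this order is given.

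Gria4 carried far fewer reads in the second part of its CDS than the other subunits did. In WT it had 1003 reads over its first 9 exons (1269 nucleotides) and 325 over the remaining 1440 nucleotides, a density ratio of 0.286 (0.252 to 0.324). The same ratio was 0.558 in Gria1, 0.743 in Gria2 and 0.651 in Gria3, and its median was 0.595 over 825 genes of like CDS length, of which 6.79% lay below Gria4. In Chx it was 0.255 (0.226 to 0.286) in Gria4 and 0.639 to 0.778 in the other subunits, with 3.77% of 848 genes below Gria4. In Harr it was 0.788 in Gria4 against 1.52 to 2.35, with 13.8% of 621 genes below Gria4. With the early part taken from base 600 on, which leaves out the dense first exons, the WT ratio was 0.394 (0.338 to 0.459) in Gria4 and 0.911 to 1.60 in the other subunits. The split was set where a short annotated transcript of Gria4 with a CDS of 1302 nucleotides ends. The 33 coding bases that only this transcript has, at chr9:4478820-4478852 between coding exons 9 and 10 of the long form, held 10 reads in WT, 12 in Chx and 4 in Harr, or 0.303 reads per nucleotide in WT, against 0.595 in the exon before and 0.164 in the next exon of the long form. Its 557-nucleotide 3′ UTR held 2, 3 and 5 reads. Whether the short form has a part in the step was not tested.

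**Figure D5:**
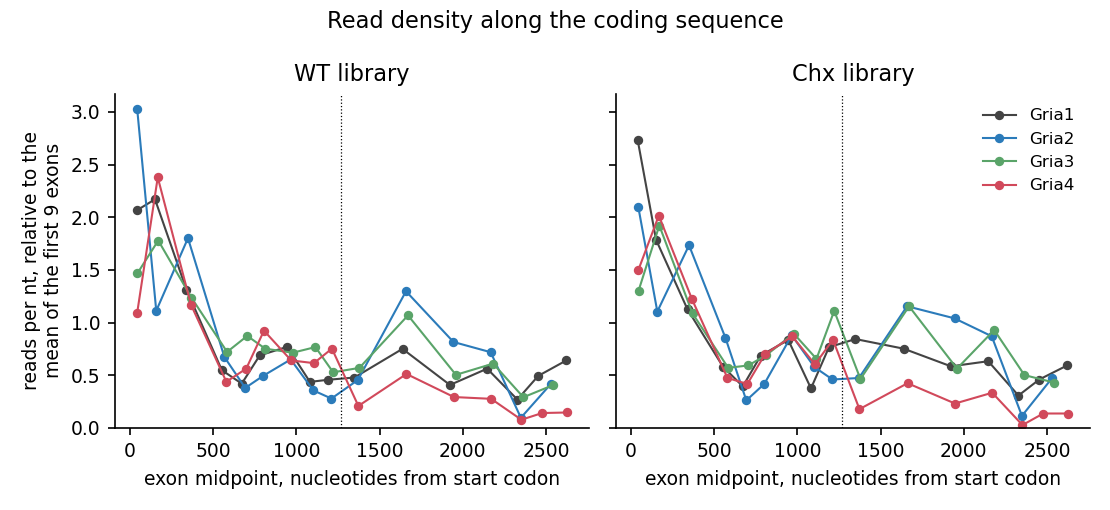
Reads per nucleotide in each coding exon relative to the mean of the first 9 exons of the same gene, against the exon's midpoint in nucleotides from the start codon, for Gria1 (grey), Gria2 (blue), Gria3 (green) and Gria4 (red) in WT and Chx. The dotted line marks 1269 nucleotides, after which the Gria4 points lie lowest, at 0.286 times the early density in WT over the whole stretch. The low points at 2349 nucleotides in Gria2 and 2352 in Gria4 are flop exons, 1 of 2 alternatives.

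Each subunit has 2 alternative exons of 115 nucleotides before the last membrane segment, known as flip and flop, which change how fast the receptor desensitizes. They occur 1 at a time, so their reads give the share of each form. The last 30 bases of each exon are shown 5′ to 3′, with bases that differ between flip and flop of the same gene in capitals; they lie on the plus strand in Gria1 and Gria3 and on the minus strand in Gria2 and Gria4.
Gria1 flip, chr11:57310693-57310722: gaAtgTggAagcAAggACTCCgGAAGTaag
Gria1 flop, chr11:57309854-57309883: gaGtgCggCagcGGggGAGGTgACTCCaag
Gria2 flip, chr3:80690404-80690433: gaAtgTggAGCcAAggACTCGgGAAGTaag
Gria2 flop, chr3:80691320-80691349: gaGtgCggCAGcGGggGAGGTgATTCCaag
Gria3 flip, chrX:41669586-41669615: gaAtgTggAGCcAAggAcTCCgGGAGTaag
Gria3 flop, chrX:41654895-41654924: gaGtgCggCAGcGGggGcGGTgACTCCaag
Gria4 flip, chr9:4427030-4427059: gaatgtggACCcAAggACTCGgGAAGcaag
Gria4 flop, chr9:4432773-4432802: gaatgtggCAGcGGggGAGGTgACTCcaag
The exons of a gene differ at 31 to 36 of 115 bases, of which 14 to 17 lie in these 30, so a read that begins earlier could fit both exons or another subunit. In Gria1 flip had 64 reads and flop 29 in WT, a flip share of 68.8% (Wilson interval 58.8 to 77.3), with 69.6% in Chx and 71.0% in Harr. In Gria2 flip had 54 and flop 36 in WT, a share of 60.0% (49.7 to 69.5), with 61.5% in Chx and 68.5% in Harr. The flip exon was thus the more read in these 2 subunits, and no library stood apart. Gria3 had 17 flip and 15 flop reads in WT (53.1%, 36.4 to 69.1) but 36 and 5 in Chx (87.8%, 74.5 to 94.7), and in Harr 15 and 3. The WT and Chx intervals of Gria3 did not overlap, on 32 and 41 reads. Gria4 had 7 and 7 reads in WT (interval 26.8 to 73.2%) and 10 and 3 in Chx (49.7 to 91.8%), too few to order them. Of the 91 words of 25 nucleotides in an exon, from 44 (Gria2 flip) to 80 (Gria1 flop) were unique, and dividing the reads by the unique words gave WT flip shares of 70.2% in Gria1, 66.8% in Gria2, 42.1% in Gria3 and 52.0% in Gria4.

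Few reads lay in the 3′ UTRs, and none of these overlaps a CDS on the same strand. In Gria2, whose 3′ UTR has 7268 nucleotides, they made up 1.07% of the reads in WT (94 of 8752), 0.805% in Chx and 1.45% in Harr. In Gria1 the share was 0.138% in WT and 0.0371% in Chx but 1.28% (0.849 to 1.94) in Harr, with 22 reads. Over all genes the share was 2.19% in WT, 1.72% in Chx and 4.10% in Harr, so Harr was the highest there too. By 3′ UTR density relative to the CDS, 69.0% of genes lay above Gria1 in Harr. In Gria3, Chx had 0 of 1555 reads, which allows up to 0.193% by a limit of 3 reads, or 0.246% by the Wilson interval. WT and Harr had 6 reads each. By value, Cacng3 and Cacng4 had higher shares than any subunit in the same library, but not all intervals were apart. In Chx the interval was 0.456 to 1.76% for Cacng4 and 0.656 to 0.987% for Gria2. In Harr it was 1.34 to 5.58% for Cacng3 and 1.15 to 1.83% for Gria2. Cacng3 had 23 of 340 reads in WT (6.76%, 4.55 to 9.95), 3.28% in Chx and 2.76% in Harr, and a 3′ UTR density of 29.1% of its CDS density in WT, where 2.20% of genes had a higher value. Cacng4 had a share of 2.26% in WT, 0.899% in Chx and 3.76% in Harr. Cacng8 had 1 read in its 43 nucleotides in Harr, which made 41.7% of its CDS density.

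The genes that work with AMPA receptors were taken as lists by function. The type II TARPs, Cacng5 and Cacng7, had 15.7 and 14.8 RPKM in WT, close to Cacng4, and both had a 5′ UTR:CDS ratio more than 2-fold higher in Chx than in WT (1.45 ± 0.46 and 1.90 ± 0.29). The γ subunits of the claudin family that are not known to serve AMPA receptors, Cacng1 and Cacng6, had 1 and 6 CDS reads in the 3 libraries together. Of 24 auxiliary and complex proteins, 22 had all 3 regions and 21 had at least 100 CDS reads. In this list the 5′ UTR:CDS ratio was 2-fold higher in Chx than in WT in 5 of 21 and lower in 1 (Abhd6, a lipase of the complex, −2.68 ± 0.52, named here for its value), beside 34.7% and 1.94% of all genes, and the CDS was 1.5-fold higher in Harr than in Chx in 0 and lower in 7, beside 17.5% and 26.3%. Its most and least read genes were Olfm1, a secreted olfactomedin, with 13579 CDS reads and 119 RPKM in WT, Nptxr, the neuronal pentraxin receptor, with 11924 and 86.2, and Gsg1l, a claudin-like auxiliary subunit, with 50 and 0.717. Of 15 scaffold and trafficking proteins, 12 had enough 5′ UTR reads, and 7 of these were 2-fold higher in Chx than in WT, beside 34.7% of all genes, with a median log2 odds ratio of 1.12. Their CDS was 1.5-fold higher in Harr than in Chx in 7 of 15 and lower in 1, beside 17.5% and 26.3%. Nsf, the ATPase that binds the Gria2 tail, had the most CDS reads of this list, 24212, and 158 RPKM in WT, below Napa, its adaptor, with 185 (named here for its value). The same ratio of Nsf was 3.68 ± 0.24 higher in Chx. Epb41l1, which links Gria1 to actin, had 18806 CDS reads, and Grip2, a PDZ scaffold, the fewest at 231.

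Of the other ionotropic glutamate receptors, the kainate receptor subunits Grik1 to Grik5 had a median log2 odds ratio of −0.02 for Chx against WT over 5 genes, beside 0.66 for all genes, with 1 called higher, beside 34.7%. Grik2 (1948 CDS reads) and Grik1 (1608) were the most read and Grik4 (171) the least, and Grik1, at −0.81 ± 0.13, was close to Gria1 and Gria4. Of 7 NMDA receptor subunits, 4 had enough 5′ UTR reads, with a median of −0.09 and 1 called higher in the same comparison, beside the same values for all genes. Grin1, the obligatory subunit, had 138 RPKM in WT, above Gria2, Grin2b had 25.9, and Grin3b had 1 CDS read in all. With harringtonine, 4 of 5 kainate subunits and 4 of 4 NMDA subunits exceeded 2-fold against Chx, beside 91.7% of all genes, and 4 of 5 and 3 of 5 did against WT, beside 95.8%.

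The genes most like Gria2 in these measures were not AMPA receptor genes. Likeness was the Euclidean distance over 5 log2 values, the 5′ UTR:CDS ratio in each library and the CDS change of Harr against Chx and of Chx against WT, among 6102 genes that had 1000 or more CDS reads and 10 or more 5′ UTR reads over all libraries. This is a description of these libraries. The nearest 3 were Ccnk, a cyclin, at a distance of 0.210, Nfe2l1, a transcription factor, at 0.249, and Pcsk5, a proprotein convertase, at 0.251. Gria4 was at 1.00, ranking 296 of 6101, Gria1 at 1.51 and Gria3 at 2.38.

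The libraries differed in depth, with 30219197 reads in WT, 35722483 in Chx and 9754412 in Harr, so the Harr counts are the least precise, and 3 reads there are worth 0.308 reads per 1000000 against 0.0840 in Chx. The 5′ UTRs held 6.14% of the reads of all genes in WT, 8.71% in Chx and 33.5% in Harr. Neuron markers were read in all libraries (5 of 5 with at least 100 CDS reads, 3677 to 3947 CDS reads per 1000000), as were those of inhibitory neurons (3 of 3, 587 to 1332) and excitatory neurons (2 of 2, 38.0 to 66.0). Astrocyte markers were there in 4 of 5 (78.8 to 213), precursor markers of oligodendrocytes in 2 of 2 (44.2 to 63.4), oligodendrocyte markers in 1 of 4 (2.15 to 6.52, Mog and Mobp at 0) and microglia markers in 1 of 4 (1.44 to 2.80). The part of each cell type in the values above was not tested.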

How the data were processed

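Ribosome footprints of 3 libraries, 1 per treatment (WT, Chx and Harr), were analysed. Per the file headers, the authors removed rRNA and duplicate reads, kept reads of 25 to 100 nucleotides, aligned them to mm10 and counted 5′ ends per 5′ UTR, CDS and 3′ UTR segment with no offset. The study's methods describe another assignment, offset from the 3′ end of reads, for its search for open reading frames. The experiments for that search had these same 3 treatments. The tables were read here as their headers state. The 9 deposited tables hold read counts, which were used here. The coverage (counts per nucleotide) and RPKM columns that the authors deposited beside them were recomputed from the counts. Of 142446 transcript identifiers, 99.4% matched GENCODE M21 symbols, and the longest transcript with all 3 regions stood for each gene.

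A 5′ UTR:CDS change is the log2 odds ratio of reads between 2 libraries with 0.5 added, for genes with at least 10 5′ UTR reads, called at 2-fold. A CDS change is scaled to the CDS reads of each library, for genes with at least 100 CDS reads, called at 1.5-fold. With 1 library per treatment there are no p-values. Intervals (95%, exact Poisson, Wilson or normal on the log scale) and SEs cover counting error only. The study's methods name unique molecular identifiers that were removed from reads, and whether duplicates were removed by them is not given in the sources used here. The calculations were tested on simulated data. Genes named beyond the 8 were, in each list, the most and least read, and the 3 nearest to Gria2, except that Abhd6, Napa and an antisense gene were named after their values were seen. The members and lists were chosen with earlier results of these data known. The result of 1 further list is not reported here. Alternatives covered scaling, minimum reads, pseudocount, transcript choice, overlaps and split points. Python 3.11.15, numpy 2.4.6, pandas 2.3.3, SciPy 1.17.1 and matplotlib 3.10.9 were used.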

Additional observations from a re-analysis of the deposited data

How the results depend on the processing

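No paired analysis was possible because each treatment had 1 library, and no replicate could be left out. Over all alternatives, the summary values and run-off were recomputed with 52 checks that did not move and 15 that did, and the values of single genes with 166 that did not, 45 that moved and 5 that reversed. Of the 45, 24 are the CDS levels of the 8 genes scaled to CDS reads in place of all reads, which all became higher, and most in Harr. Scaled to all reads of each library, the CDS change of Harr against Chx reversed to −0.15 in Gria1, −0.087 in Gria2 and −0.053 in Gria3, and that of Harr against WT to −0.22 in Gria1 and −0.015 in Gria2. The medians over the 8 genes became −0.34 and −0.35, with 0 genes 1.5-fold higher in either comparison and 3 lower against Chx and 2 against WT, where 2.72% and 3.499% of all genes were higher and 50.5% and 46.4% lower. With median-of-ratios size factors, and likewise with the transcript with the most reads, 1 gene (Cacng3) rather than 2 was 1.5-fold higher in Harr than in WT. With no minimum of CDS reads, 43.3% and 42.0% of all genes were 1.5-fold higher in Harr than in Chx and WT, and 7.29% were higher and 7.47% lower in Chx than in WT. The early against late value of Gria2 was −1.46 relative to Chx with the split at 1500 nucleotides, and relative to WT −1.97 with the split at 900 and −1.53 at 1500. The cause was not tested. Harr, with the fewest reads, limits the TARPs most, since Cacng2 had 36 CDS reads there. The late against early density of Gria4, at its split as well as with the early part from base 600, was chosen after seeing the data.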
